A study of Mus musculus with 14 samples.

Results

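AP-1 is a family of dimeric transcription factors built from basic leucine zipper proteins of the Jun, Fos, Atf and Batf groups. The 10 subunits described here are Jun, Junb and Jund, then Fos, Fosb, Fosl1 and Fosl2, then Atf3, Batf and Batf3, out of 48714 gene labels joined across the libraries. They were chosen by name and read from rows carrying that name or the name with a copy number. A single row was found for each subunit except Jund, which is listed as Jund_1 and Jund_2. Of the 10, 8 had a mean of 1 RPKM or more (reads scaled by the length of the gene model and by the reads of the library) and were tested among 9921 genes. Fosl1 lay below that level and Batf3 was listed at 0 in all 14 libraries.

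The RNA came from haematopoietic stem cells (HSCs) of the bone marrow of C57BL/6 mice, sorted as [Ca2+]high (calcium-high) and [Ca2+]low (calcium-low) populations. Both populations were sequenced as 7 libraries of 100 cells, with replicate numbers 1 to 7, and they shared strain, tissue and cell type, with no transgene or treatment named. The labels give neither the age of the mice nor whether libraries came from separate animals, so p-values measure the spread between these libraries, which may be technical. The title of the study concerns dormant and active HSCs and the role of calcium in dormancy, and the groups are compared here for how their AP-1 transcripts differ.

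Jun proteins can pair with each other or with Fos proteins, whereas Fos proteins need a partner from another group. Jun and Fos dimers bind the DNA element TGANTCA, and dimers with Atf proteins prefer TGACGTCA. Fos, Fosb, Jun, Junb and Atf3 are immediate early genes, transcribed within minutes of growth factor, stress or calcium signals and also when tissue is handled. In mouse HSCs, Junb is known as a brake on proliferation.

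The 14 libraries held 3478000 to 7219000 reads in the tested genes (rounded) where the replicate number was 1 to 3, against 8101000 to 10053000 for numbers 4 to 7. These sets of replicate numbers are kept apart below because of that depth and because the median gene differs between them. The median log2 fold change over the tested genes was -0.20 in replicates 1 to 3 and 0.11 in replicates 4 to 7. All 10 HSC markers checked, among them Kit, Hlf, Meis1 and Slamf1, were found, with a summed level of 167 to 265 RPKM over the 14 libraries. The lowest sums were those of the libraries numbered 3, at 167.1 RPKM in calcium-high and 166.8 in calcium-low, against 189 to 265 in the others. Calcium-low replicate 3 stood apart in its neutrophil markers, with a summed level of 767 RPKM against 1.29 to 77.3 RPKM in the other 13 libraries. Both libraries numbered 3 were high in Car1, the erythroid carbonic anhydrase, with 62.5 RPKM in the calcium-high library and 120 in the calcium-low one.

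Promoter sequences are shown for Jun, Fos and Fosb, the members whose calcium differences are set against each other below. Each runs 5′ to 3′ on the gene's strand from 250 bases before to 50 after the RefSeq start (GRCm38.p6), at chr4:95052173-95052472 (minus) for Jun, chr12:85473640-85473939 (plus) for Fos and chr7:19309996-19310295 (minus) for Fosb. Capitals mark matches to TGACATCA and to TGACG, the core shared by elements of the Atf and CREB type.
Jun: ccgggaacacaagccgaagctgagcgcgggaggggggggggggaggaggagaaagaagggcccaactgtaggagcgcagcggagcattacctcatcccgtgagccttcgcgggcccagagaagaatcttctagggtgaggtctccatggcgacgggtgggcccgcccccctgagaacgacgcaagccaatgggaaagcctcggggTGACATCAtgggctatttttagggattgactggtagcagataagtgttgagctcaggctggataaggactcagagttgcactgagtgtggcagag
Fos: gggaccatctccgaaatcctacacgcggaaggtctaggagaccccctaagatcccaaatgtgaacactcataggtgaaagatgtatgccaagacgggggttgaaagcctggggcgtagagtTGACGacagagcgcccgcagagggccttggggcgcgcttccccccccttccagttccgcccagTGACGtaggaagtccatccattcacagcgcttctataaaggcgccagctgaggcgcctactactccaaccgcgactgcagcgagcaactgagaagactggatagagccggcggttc
Fosb: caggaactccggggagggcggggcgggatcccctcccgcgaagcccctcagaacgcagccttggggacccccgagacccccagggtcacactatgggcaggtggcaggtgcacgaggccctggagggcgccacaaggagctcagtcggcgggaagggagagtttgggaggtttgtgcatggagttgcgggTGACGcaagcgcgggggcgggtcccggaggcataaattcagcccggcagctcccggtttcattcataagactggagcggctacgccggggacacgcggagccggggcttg
The Jun window held TGACATCA, a variant that Jun and Atf2 are known to bind in its promoter, from -45 to -38, counting the annotated start as 0. TGACG was found in the Fos window at -129 and -66 and in the Fosb window at -60. Such windows were available for 9 of the 10 members, all but Fosl1. Over 32851 windows of the same length, searched on both strands, TGACATCA was present in 3.62% and TGACG in 20.8%, which includes every TGACGTCA. TGANTCA (7.81% of all windows), TGACGTCA (1.79%) and the CArG box bound by serum response factor (1.63%) had no match in the 9 windows. TGACG occurred in 5 of the 9. Elements more than 250 bases before the start lie outside these windows, so a missing match does not show that a promoter lacks the element. RefSeq starts are not the GENCODE gene starts for every member. The Jund window, for example, ends at 70697788 on chromosome 8, before its GENCODE gene start at 70698949.

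The members spanned a wide range of levels. Fos was the most abundant at 206 ± 74.2 RPKM over the 14 libraries (SD), followed by Jun at 63 ± 16.2, Junb at 25.5 ± 9.27 and Fosb at 20.1 ± 6.43. Fosl2 was at 10.2 ± 8.1 RPKM, Jund_1 at 7.23 ± 2.23, Batf at 3.92 ± 1.24 and Atf3 at 3.38 ± 2.17. The second Jund label, Jund_2, averaged 7.21 RPKM. If the reads of Jund were divided between these labels, Jund as a whole could lie higher in this order. Fos exceeded Jun, and Jun exceeded Junb, in 14 of 14 libraries. Further down, Fosb exceeded Fosl2 in 12 of 14 libraries and Jund_1 exceeded Batf in 12, with overlapping ranges. The other neighbours were closer: Junb exceeded Fosb in 9 of 14 libraries, Fosl2 exceeded Jund_1 in 8 and Batf exceeded Atf3 in 8. The reads behind these values ran from 4335 to 23703 per library for Fos and from 2733 to 8912 for Jun, but only from 37 to 502 for Atf3 and from 38 to 151 for Batf.

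**Figure D1:**
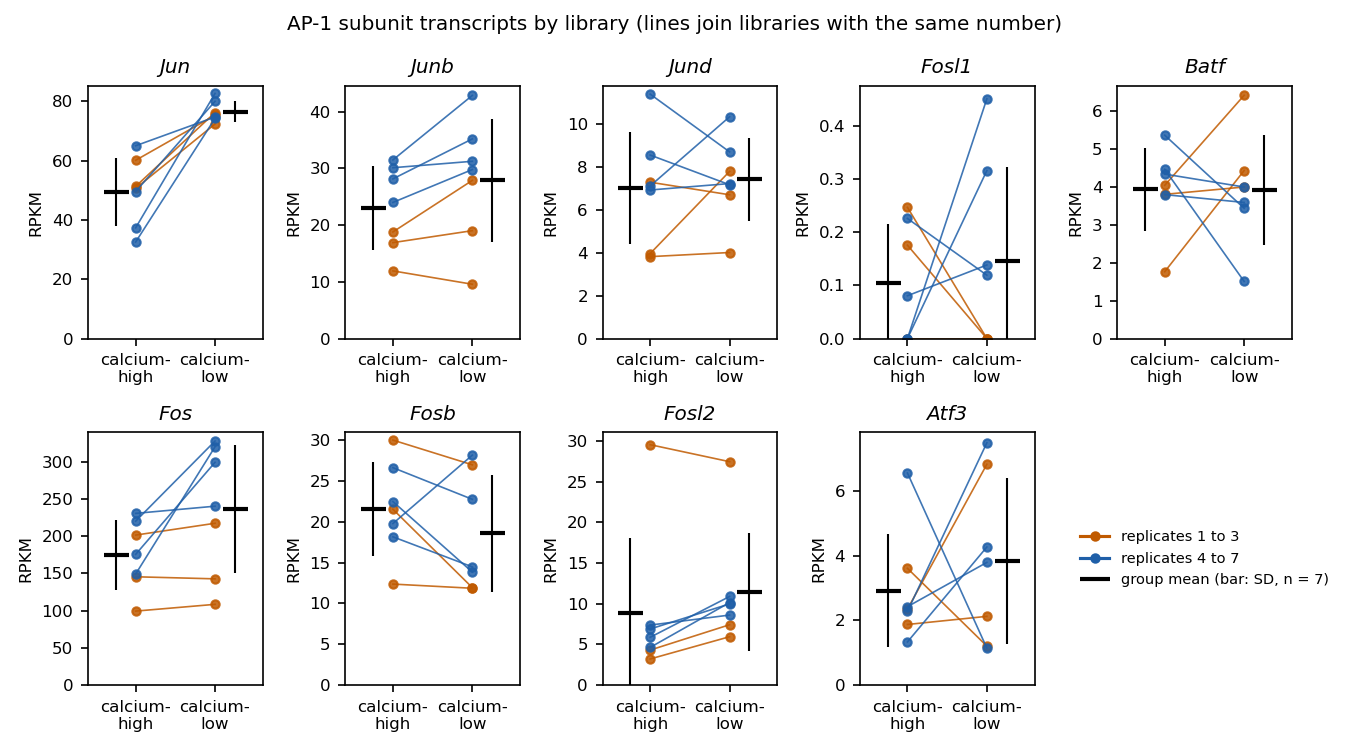
RPKM (linear axes from 0) of the 9 detected AP-1 members in calcium-high and calcium-low libraries, with lines joining libraries of the same number, orange for replicates 1 to 3 and blue for 4 to 7, and black bars for the mean and SD of each group (n = 7, cut at 0). Every Jun line rises from calcium-high to calcium-low with no overlap between the groups, and the Fosl2 panel shows the libraries numbered 3 at 29.5 and 27.4 RPKM.

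Jun transcript was lower in every calcium-high library than in any calcium-low library. Jun encodes the founding AP-1 subunit, from a single exon (GRCm38 chromosome 4, 95049034 to 95052222, minus strand). Calcium-high libraries ranged from 32.5 to 65 RPKM with a median of 50.6, and calcium-low libraries from 72.3 to 82.6 RPKM with a median of 75.3. The groups did not overlap, which held in the lower direction for 11 of 9921 tested genes (0.111%). The calcium-low libraries lay close together, with an SD of 4.69% of their mean against 23.2% in calcium-high, and calcium-high replicates 6 and 7 were the lowest at 37.3 and 32.5 RPKM. Means were 49.5 ± 11.5 and 76.5 ± 3.59 RPKM (SD, n = 7), a log2 fold change of -0.65 ± 0.14 (SE) on the log2(RPKM + 1) scale. By limma this passed with the replicate number as a block (adjusted p = 0.0364) and not without it (adjusted p = 0.119); with the library set alone as a term it passed too (adjusted p = 0.0341). Without the block, it passed when calcium-high replicate 3 was left out (limma adjusted p = 0.0423). The call with the block held without pair 3 (limma adjusted p = 0.0179) and was lost without any other pair (limma adjusted p from 0.0522 to 0.168), with log2 fold changes of -0.57 to -0.73 throughout. The fit with the block also called 3 of 10 tested HSC markers (Slamf1, Procr and Fgd5) and 1 of 5 tested megakaryocyte markers higher, the latter being Vwf, at 17.3 ± 5.88 against 4.87 ± 2.44 RPKM with no overlap between groups. Of 8 T and NK cell markers, 4 (Cd3e, Cd3g, Trac_1 and Gzma) were listed at 0 in every library, and the summed level was 4.55 to 19.1 RPKM in calcium-high and 11.8 to 33 in calcium-low libraries, lower in 7 of 7 pairs. Nkg7, a granule protein of those cells, made up most of that sum, at 9.74 ± 4.88 against 19.7 ± 7.16 RPKM (limma adjusted p = 0.0514 with the block). The part of these markers in the Jun difference was not tested. In bulk RNA, fewer cells with the transcript and less transcript per cell cannot be told apart.

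Over all genes, limma without the block called 0 of 9921 genes (0.0%) and 0 of the 8 tested members, with 669 genes at an unadjusted p under 0.05. With the block it called 43 genes lower (0.433%) and 48 higher (0.484%), and of the members it called Jun. Limma-voom, which here also weighted each library by its estimated quality, was run on reads recovered from the RPKM steps. Without the block it called 714 genes (7.2%), 249 of them lower (2.51%), and the members Jun, Fos and Fosl2 were among the latter. With the block, limma-voom called 855 genes (8.62%), 277 lower (2.79%) and 578 higher (5.83%), and Jun and Fosl2 were among those that were lower. The log2 fold change was below 0 for 6 of the 8 tested members, against 57.8% of all tested genes, with a median of -0.22 over members and -0.03 over all tested genes.

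The other Jun proteins differed less. Junb (chromosome 8, 84974484 to 84978718, minus strand) ranged from 11.9 to 31.5 RPKM in calcium-high (median 24) and from 9.57 to 42.8 in calcium-low libraries (median 29.8), so the groups overlapped. It was lower in 6 of 7 pairs of libraries with the same number, with a log2 fold change of -0.22 ± 0.28 (SE; limma adjusted p = 0.992, and 0.395 with the block). Of all tested genes, 12.4% were lower in 6 or more of 7 pairs. Junb separated the library sets more than the calcium groups, with 9.57 to 27.9 RPKM in the libraries of replicates 1 to 3 and 24 to 42.8 in those of replicates 4 to 7. Jund, the subunit known for expression in resting cells, was at 7.02 ± 2.63 and 7.43 ± 1.94 RPKM and lower in 4 of 7 pairs (log2 fold change -0.10 ± 0.21 SE, limma adjusted p = 0.996). The labels Jund_1 and Jund_2 differed by less than 2 SD of counting error in 14 of 14 libraries, and the one with the higher mean, Jund_1, is given; which copy each marks is not given in the sources used here, and reads could be divided between them.

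Fos transcript was lower in calcium-high HSCs in replicates 4 to 7 and close to equal in replicates 1 to 3. Fos (chromosome 12, 85473890 to 85477273, plus strand) encodes a subunit that is active only with a partner such as Jun. In replicates 4 to 7 the calcium-high libraries were at 149 to 231 RPKM (median 198) and the calcium-low libraries at 240 to 328 (median 310), with no overlap, as in the same direction for 3.1% of tested genes. The log2 differences of pairs 4, 5 and 6 were -0.77, -0.57 and -1.10. Pair 7 was close to equal, at 231 against 240 RPKM (-0.06). In replicates 1 to 3 the levels were 146, 202 and 99.4 RPKM in calcium-high and 143, 218 and 108 in calcium-low libraries. Libraries of the same number therefore lay near each other in that set, and far from the other numbers. Over all 7 pairs Fos was at 175 ± 46.8 and 237 ± 86.6 RPKM, lower in 6 of 7 pairs, and did not pass (log2 fold change -0.39 ± 0.25 SE; limma adjusted p = 0.876, and 0.231 with the block). Of all tested genes, 12.4% were lower in 6 or more pairs.

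Fosb (chromosome 7, 19302696 to 19310051, minus strand), a close relative of Fos, leaned the other way without passing the test. It was at 12.4 to 30 RPKM in calcium-high (median 21.5) and 11.9 to 28.2 in calcium-low libraries (median 14.5), ranges that overlapped almost fully. It was higher in calcium-high libraries in 6 of 7 pairs, the exception being replicate 6 with 19.8 against 28.2 RPKM. The log2 fold change was 0.24 ± 0.22 (SE) and did not pass (limma adjusted p = 0.974, and 0.467 with the block).

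Fosl2 (Fra-2; chromosome 5, 32135801 to 32157842, plus strand), a Fos relative that can be expressed for longer after a stimulus, was lower in calcium-high libraries in 6 of 7 pairs. Of all tested genes, 12.4% were lower in 6 or more pairs. Apart from the libraries numbered 3, the calcium-high values of Fosl2 were 4.29, 3.2, 4.62, 6.88, 5.86 and 7.36 RPKM and the calcium-low values 7.41, 5.93, 10.1, 9.97, 10.9 and 8.59 RPKM. In replicate 3 both groups were several times higher, at 29.5 and 27.4 RPKM. Those same libraries had the 2 highest Klf1 levels of the 14, at 5.43 and 9.52 RPKM (an erythroid transcription factor), beside the Car1 levels above; their part in the Fosl2 level was not tested. Over all libraries the log2 fold change was -0.53 ± 0.37 (SE; limma adjusted p = 0.913, and 0.067 with the block). With the block and without pair 3 it was -0.64, and Fosl2 passed (limma adjusted p = 0.00695).

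Fosl1 (Fra-1) was at the edge of detection, with 0 to 26 reads per library and 0 reads in 6 of 14, where the limit set by 3 reads is 0.0474 to 0.123 RPKM depending on the library. Its highest levels were 0.451 and 0.316 RPKM, in calcium-low replicates 6 and 7. Atf3, a stress-induced partner of Jun proteins that can act as a repressor, was at 1.33 to 6.57 RPKM in calcium-high (median 2.35) and 1.14 to 7.5 in calcium-low libraries (median 3.8). It was lower in 5 of 7 pairs and did not pass (log2 fold change -0.21 ± 0.32 SE; limma adjusted p = 0.992, and 0.836 with the block). Batf3, which pairs with Jun proteins in dendritic cells, was listed at 0 throughout, and 3 reads over its annotated exons would be 0.0506 to 0.132 RPKM.

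Batf, a partner of Jun proteins best known in lymphocytes, had opposite directions in the library sets. In replicates 1 to 3 it was 4.03, 3.8 and 1.76 RPKM in calcium-high and 6.41, 3.99 and 4.42 in calcium-low libraries, lower in each pair. In replicates 4 to 7 it was 3.79, 5.35, 4.46 and 4.33 RPKM in calcium-high and 3.58, 3.43, 1.5 and 3.99 in calcium-low libraries, higher in each pair. The difference between the sets was 0.98 ± 0.34 on the log2 scale (SE), of which 0.31 is shared by the median gene, and it did not pass (limma adjusted p = 0.118, and 0.0592 with the block). Over all pairs the means were 3.93 ± 1.1 and 3.90 ± 1.45 RPKM.

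Taken by library set, replicates 4 to 7 alone called Jun, Fos and Fosl2 lower in calcium-high HSCs (limma adjusted p = 0.019, 0.0267 and 0.0128), 3 of 8 tested members. In that fit 177 of 9921 genes were lower (1.78%) and 631 higher (6.36%), and with median-of-ratios scaling 459 were lower and 237 higher, with Junb as a further member called lower (limma adjusted p = 0.0377). The log2 fold changes there were -0.79 ± 0.17 for Jun, -0.62 ± 0.15 for Fos and -0.61 ± 0.12 for Fosl2 (SE). Replicates 1 to 3 alone called 0 genes (0.0%; limma, 1151 at an unadjusted p under 0.05), and Jun was at -0.46 ± 0.15, Fos at -0.07 ± 0.32 and Fosl2 at -0.43 ± 0.78 on the same scale. Relative to the median gene of the same libraries, Jun was at -0.27 in replicates 1 to 3 and -0.90 in replicates 4 to 7, and Fos at 0.13 and -0.73. In replicates 4 to 7 limma also called 6 of 10 tested HSC markers, 3 of 5 tested megakaryocyte markers and 1 of 7 tested erythroid markers (Car1, log2 fold change 2.79) higher. It called the 1 tested T and NK cell marker (Nkg7, -0.91) lower. The part of these markers in the AP-1 values was not tested. Summed levels over all 14 libraries were 167 to 265 RPKM in calcium-high and 167 to 242 in calcium-low for the HSC markers, and 78.8 to 184 and 83 to 104 RPKM for the megakaryocyte markers, with no marker of either list at 0 in every library. The difference between sets did not pass for Jun (limma adjusted p = 0.352, and 0.274 with the block) or Fos (limma adjusted p = 0.278, and 0.0991 with the block). That test called 0 of 9921 genes (0.0%) without the block, with 2841 at an unadjusted p under 0.05, and 165 (1.66%) with it.

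**Figure D2:**
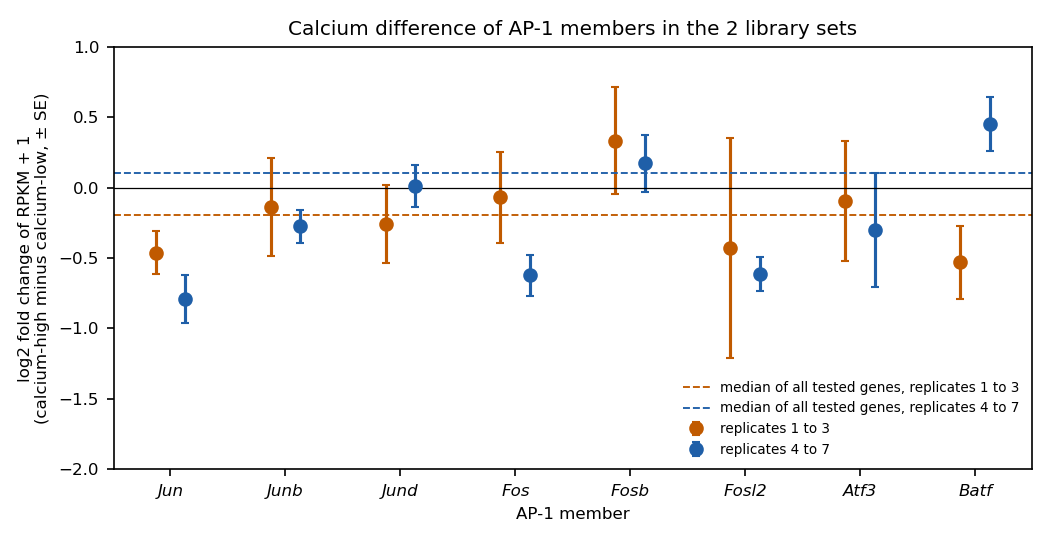
Log2 fold change of RPKM + 1 (calcium-high minus calcium-low, points, with SE bars from limma) of the 8 tested AP-1 members in replicates 1 to 3 (orange) and 4 to 7 (blue), with dashed lines at the median of all tested genes in each set, -0.20 and 0.11. Jun lies below the line of its own set in both sets, Fos only in replicates 4 to 7, and Batf lies on opposite sides of 0.

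Setting Jun against the Fos members within each library largely removes what scales all genes of that library alike. Jun was at a similar distance from Fos in both groups: the Jun level was 0.141 to 0.509 of the Fos level in calcium-high and 0.228 to 0.667 in calcium-low libraries. The log2 difference, Jun minus Fos, averaged -1.78 ± 0.55 and -1.52 ± 0.57 (SD, n = 7) and was lower in calcium-high libraries in 5 of 7 pairs, 3 of 3 in replicates 1 to 3 and 2 of 4 in replicates 4 to 7. Against Fosb the shift was larger: Jun was 1.45 to 4.09 times the Fosb level in calcium-high and 2.79 to 6.39 times in calcium-low libraries. That log2 difference averaged 1.17 ± 0.45 and 2.07 ± 0.50 and was lower in calcium-high libraries in 7 of 7 pairs. Fos against Fosb, both of the Fos family, was also lower in 7 of 7 pairs, at 2.96 ± 0.23 and 3.58 ± 0.48. Against Fosl2 there was little shift: Jun minus Fosl2 averaged 2.66 ± 1.03 and 2.78 ± 0.67, a difference of -0.12, and was lower in calcium-high libraries in 3 of 7 pairs. Against the mean of Fos and Fosb, Jun was -0.31 ± 0.49 in calcium-high and 0.27 ± 0.48 in calcium-low libraries, a difference of -0.58. No test is given for these contrasts, since the members were chosen with earlier results of these data known.

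**Figure D3:**
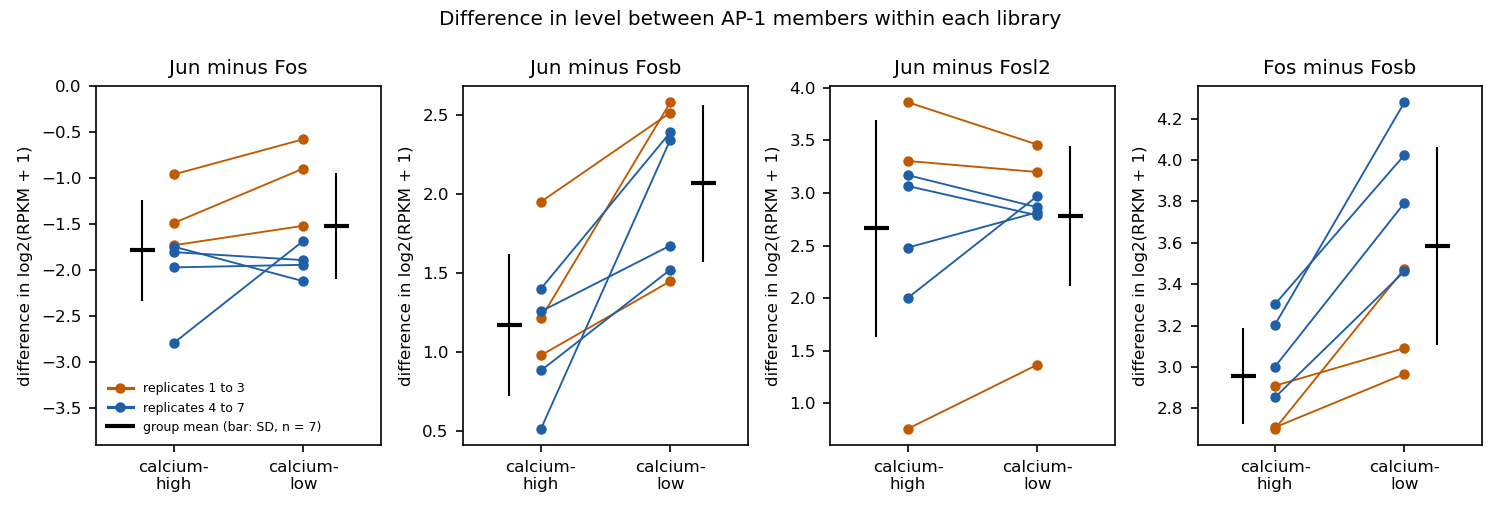
Differences in log2(RPKM + 1) between AP-1 members within each library, for Jun minus Fos, Jun minus Fosb, Jun minus Fosl2 and Fos minus Fosb, with lines joining libraries of the same number (orange, replicates 1 to 3; blue, 4 to 7) and black bars for mean and SD (n = 7); the axes do not start at 0. The lines rise towards calcium-low in 7 of 7 pairs for both contrasts with Fosb, in 5 of 7 for Jun minus Fos and in 3 of 7 for Jun minus Fosl2.

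Genes around AP-1 were read from lists chosen by function. For comparison, limma with the block called 0.433% of all tested genes lower and 0.484% higher. Of 26 other basic leucine zipper genes, 21 were tested and limma with the block called 1, Batf2, a partner of Jun proteins induced by interferon in macrophages. Batf2 was higher in calcium-high HSCs, at 2.08 ± 0.383 against 1.07 ± 0.302 RPKM (SD, n = 7; limma adjusted p = 0.0364 with the block, 0.099 without). Batf2 had a lower mean level than any tested AP-1 member, and its calcium-low mean lay close to the filter of 1 RPKM. Its groups did not overlap, as in the higher direction for 3 of 9921 genes (0.0302%), so its direction was opposite to that of Jun in 7 of 7 pairs. The most abundant of this list, Atf4, Nfe2 and Nfe2l2, did not pass (limma adjusted p = 0.379, 0.628 and 0.92 with the block). Within replicates 4 to 7, limma called 2 of the list higher, Batf2 and Nfe2, and 3 lower, Crem, Mafk and Cebpa, the last 3 named after their values were seen. That fit called 6.36% of all tested genes higher and 1.78% lower, so 2 of 21 higher was near the share of all genes.

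Over all 7 pairs the kinases and factors upstream showed 0 calls by limma, with or without the block: 0 of 13 tested JNK pathway genes, 0 of 12 ERK pathway genes and 0 of 9 genes of serum response factor and its cofactors. Among all tested genes limma called 0.0% without the block and 0.917% with it, so 0 calls in these lists were near that share. In replicates 4 to 7 alone limma called 1 ERK pathway gene (Mapk3, log2 fold change 0.45, adjusted p = 0.0374) and 1 of the serum response factor list (Mkl2, 0.40, adjusted p = 0.0322) higher, both named after their values were seen, and 0 of the JNK pathway. That fit called 6.36% of all tested genes higher and 1.78% lower, so 1 gene in a list of 12 or 9 was near the share called higher. Median log2 fold changes over all pairs were -0.03, -0.01 and 0.00 beside -0.03 over all tested genes. Map2k7, which activates JNK, was at 7.08 ± 1.07 and 7.02 ± 0.69 RPKM, and Elk4, a cofactor of serum response factor, at 15 ± 1.58 and 14.9 ± 0.601.

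Of 10 genes of mRNA decay and protein turnover that act on AP-1, limma with the block called 2, both lower in calcium-high HSCs, and 0 without it. These were Zfp36 (42.8 ± 12.4 against 66.2 ± 24.1 RPKM; limma adjusted p = 0.0364 with the block) and Zfp36l1 (5.21 ± 1.28 against 7.58 ± 1.76 RPKM; limma adjusted p = 0.0372 with the block). Both bind AU-rich elements and speed the decay of messages such as Fos, and both were lower in 7 of 7 pairs, as were 3.02% of tested genes. Zfp36l2, their most abundant relative at 127 ± 26.6 and 144 ± 30.3 RPKM, did not pass (limma adjusted p = 0.441 with the block).

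Of 22 textbook AP-1 targets, 9 were tested and limma with the block called 1, Cd69, an early activation antigen of leukocytes (1.02 ± 1.1 against 3.58 ± 2.15 RPKM; adjusted p = 0.0195), and 0 without it. Vim (vimentin) was at 35.4 ± 11.3 and 49.7 ± 5.64 RPKM and Cd44, an adhesion receptor, at 13.4 ± 1.12 and 16.6 ± 2.38 RPKM, with limma adjusted p of 0.0913 and 0.129 with the block. Mt1, a metallothionein, was at 6.49 ± 3.8 and 4.73 ± 5.42 RPKM (limma adjusted p = 0.405 with the block). Taking replicates 4 to 7 alone, limma called 4 of the 9, Mt1 and Ccnd1 higher (log2 fold changes 1.23 and 0.53) and Plaur and Cd69 lower (-0.92 and -1.26), of which Ccnd1 and Plaur are named after their values were seen. That fit called 6.36% of all tested genes higher and 1.78% lower. The 9 had a median log2 fold change of 0.02 over all pairs, -0.26 in replicates 1 to 3 and -0.10 in replicates 4 to 7.

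Of 24 other immediate early genes, 21 were tested, and limma called 0 with or without the block. In replicates 4 to 7 alone it called 10 lower and 1 higher, beside the 1.78% and 6.36% over all genes. The most abundant were Nr4a1, a nuclear receptor, at 67 ± 13.2 and 107 ± 45.2 RPKM, Dusp1, a MAP kinase phosphatase, at 59.4 ± 13.6 and 57.2 ± 9.51, and Myc, a growth regulator, at 31.5 ± 13.6 and 43.5 ± 17.8. In replicates 4 to 7 the log2 fold changes were -0.93 for Nr4a1, 0.03 for Dusp1 and -0.21 for Myc (limma adjusted p = 1.11e-04, 0.839 and 0.223).

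Among 4118 genes averaging at least 5 RPKM, those whose 7 pair differences lay closest to those of Jun were Vmp1, Zfp36, Kcna3, Slc22a3 and Sox4. The root-mean-square distances were 0.171 to 0.359 on the log2 scale, against a median of 0.779 over these genes. The nearest of 4118 genes lie under that median by choice. Vmp1, a membrane protein of autophagy, was the closest, at 13.7 ± 2.62 and 21.5 ± 4.1 RPKM and lower in 7 of 7 pairs (limma adjusted p = 0.0372 with the block, 0.152 without). Genes near Jun or Fos were picked for pair differences like those of the member. Their direction and p-values therefore follow from that choice and are no separate result. Closest to Fos were Fbxo30, Btg1, Skil, Nr4a2 and Gem, at distances of 0.153 to 0.26 against a median of 0.675. Fbxo30, a ubiquitin ligase component, was at 4.33 ± 1.05 and 5.86 ± 0.88 RPKM (limma adjusted p = 0.193 with the block), and Nr4a2 and Btg1 are also on the list of immediate early genes.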

How the data were processed

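Total RNA of 100 sorted cells per library was primed with not-so-random primers, made into Nextera XT libraries and sequenced on a NextSeq, per the labels' protocols. The authors deposited RPKM for every label; the headers name no unit, so it was read from the values. The submitters' processing notes name GRCm38, mm10 and edgeR, with no role; the aligner, counter and annotation are not given in the sources used here. Of 48737 labels per file, 23 were bare numbers and were left out.

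Whole reads were recovered from the RPKM steps for all 9921 genes averaging at least 1 RPKM (tolerance 0.02 reads; 0 of 300 jittered genes resolved), which gave the depths. Library totals implied by the steps were 14276000 to 37152000 reads. log2(RPKM + 1) values were tested in limma 3.58.1 under R 4.3.3, letting the prior variance follow the mean level, two-sided, calcium-high minus calcium-low, over those 9921 genes, with Benjamini-Hochberg adjusted p under 0.05 as a call. The pseudocount of 1 shrinks fold changes of genes at low RPKM. Libraries of the same number deviated together from the group means (correlations of 0.384 to 0.715 in all 7 pairs), over the 0.1 asked of each pair, so the fit with the replicate number as a block is given beside the fit without it. With deviations taken within library sets the correlations were -0.0647 to 0.552, and 3 of 7 pairs (5, 6 and 7) lay under 0.1; a library's own number was its best partner for 5 of 14. In a simulated comparison of calcium-high with calcium-low over 9921 genes, limma recovered 90% of genes changed by 1 on the log2 scale without the block and 87% with it. False calls numbered 15 and 9. The simulated noise was independent between libraries, with no shared effect of replicate number or library set. It therefore cannot tell which fit suits these data, nor what 0 calls in them mean. Limits from 3 reads cover counting error only. Gene coordinates are from GENCODE M21 (GRCm38) and promoters from RefSeq.

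The members and gene lists were chosen with earlier results of these data known. Named were the members, list genes called with or without the block, the 3 most abundant genes of each list, and the 5 nearest to Jun and to Fos; 1 gene that this rule names is not reported here. Genes were summarised with Python 3.11.15, numpy 2.4.6 and pandas 2.3.3. Alternatives covered the block, scaling, pseudocount, filter, limma-voom with library quality weights on recovered reads, library sets and leaving out libraries.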

Additional observations from a re-analysis of the deposited data

Results flagged for a closer look

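Fosl2 was far from the rest of its group in both libraries numbered 3. It was at 29.5 RPKM in calcium-high replicate 3, against 7.36 RPKM in the next highest calcium-high library (gap over range 0.842), and at 27.4 RPKM in calcium-low replicate 3, against 10.9 RPKM in the next (gap over range 0.77). Both exceed Dixon's critical value for 7 libraries. The log2 difference Jun minus Fosl2 stood apart in calcium-low replicate 3 too, at 1.37 (gap over range 0.679). Chance flags about 1 in 20 groups, and 18 groups of member values and 12 of contrasts were examined.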

How the results depend on the processing

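Without the block limma called 0 genes and 0 members. With the replicate number as a block it called 91 genes and 1 member (Jun). Calls also differed with and without the block under other settings. Fos passed with limma-voom without the block (-0.65, limma-voom adjusted p = 0.0246) and not with it (-0.37, limma-voom adjusted p = 0.13). The library weights of limma-voom were estimated again with the block, so the part of the pairing in that change was not tested. Fosl2 without both libraries numbered 3 passed with the block and not without it (-0.64 in each, limma adjusted p = 0.00695 and 0.106). Genes and members called were 328 and 1 when median-of-ratios scaling was added to the block, 92 and 1 with the block and a pseudocount of 0.1, 855 and 2 with the block and limma-voom, and 656 and 3 with the block in replicates 4 to 7. Without the block they were 714 and 3 with limma-voom, 51 and 1 with the library set as a term, 808 and 3 in replicates 4 to 7 alone, and 696 and 4 there with median-of-ratios scaling. Genes called were 4 with median-of-ratios and 3 with upper-quartile scaling, 1 without a filter, 1 at a mean of 5 RPKM or more and 1 with the block in replicates 1 to 3, with 0 members in each. Without both libraries numbered 3, 119 genes and 1 member were called. Leaving out 1 library gave 0 to 101 genes and 0 to 1 members, and leaving out 1 pair under the block 0 to 302 genes (8 without pair 1 and 12 without pair 5) and 0 to 2 members; the highest counts came without calcium-high replicate 3 and without pair 3. The difference between library sets had 0 calls without and 165 with the block.

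Jun kept its direction under every alternative run, the smallest being -0.24 in replicates 1 to 3 with median-of-ratios scaling (adjusted p = 0.944). It passed at -0.65 with the block, with that scaling added to the block and with the library set as a term, at -0.84 with limma-voom, -0.60 with block and limma-voom, -0.66 with block and pseudocount 0.1, -0.68 without both libraries numbered 3, -0.79 in replicates 4 to 7 with or without the block and -0.96 there with median-of-ratios scaling. Leaving out libraries gave -0.72 to -0.56, and pairs -0.73 to -0.57. Fos passed at -0.65 with limma-voom, -0.62 in replicates 4 to 7 with or without the block and -0.79 there with median-of-ratios scaling, and was 0.16 in replicates 1 to 3 with that scaling. In those libraries and scaling Junb was 0.079, Atf3 0.074 and Batf -0.35. Batf was -0.53 in replicates 1 to 3 with or without the block, and -0.12 to 0.16 without single libraries and -0.15 to 0.20 without pairs (-0.051 without pair 5). Jund was 0.011 in replicates 4 to 7 with or without the block, and -0.22 to 0.0058 without single libraries and -0.18 to 0.015 without pairs. The cause of these differences was not tested. The contrast of Jun with the mean of Fos and Fosb, -0.58, was -0.67 to -0.43 without single pairs. The fits without both libraries numbered 3, with the block inside a library set or with limma-voom or a pseudocount of 0.1, and with median-of-ratios scaling inside a set, were chosen after seeing the data. Depth limits Fosl1, Batf3, Atf3 and Batf most.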
